A study of Mus musculus with 4 samples.

Results

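Lin28b, Igf2bp1, Igf2bp2, Igf2bp3, Hmga1 and Hmga2 are 6 genes of a fetal growth program, and their RNA was compared between sorted cells of mouse fetal liver and of adult bone marrow. They were chosen by name, as the rows of the authors' deposited table whose symbol is one of these 6, among 37996 features of which 33465 carry an identifier and symbol. All libraries are RNA sequencing of primary C57BL/6 cells sorted by FACS, made from cDNA with a SMARTer kit for very low input, from fetal liver (2 libraries) or adult bone marrow (2 libraries). The series describes the comparison as one of the fetal liver niche and the adult bone marrow niche of blood stem cells. No source used here gives the sort markers, the fetal stage, the age of the adult mice or the animals behind each library. P-values therefore measure the spread among 4 libraries, which may be technical.

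The symbols in the deposited table are closed up over rows that lack one. Each was therefore put back on its feature, as described with the processing. That step itself uses levels and ratios, so the placements are not independent of them. All 6 members were placed, at probabilities from 0.971 for Hmga1 to 1 for Lin28b, Igf2bp2 and Hmga2, between 40 rows (Igf2bp2) and 1072 rows (Hmga1) below the place where the symbol stands. Levels are given in normalized reads, that is read counts divided by the authors' size factor of the library. Values of single libraries were recovered from the deposited group means, and the libraries are called the deeper and the shallower one of their group because the columns carry no replicate number. A member had between 6 and 268 reads in a library.

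LIN28B is an RNA-binding protein that blocks the maturation of the let-7 microRNAs and their precursors, and let-7 in turn lowers the mRNAs of Lin28b itself, of the Igf2bp genes and of Hmga2. The IGF2BP proteins bind mRNAs through KH domains and keep them stable or in place. HMGA1 and HMGA2 are small proteins of chromatin that bind AT-rich DNA and bend it. In the mouse, Lin28b and Hmga2 are known for being high in fetal blood stem cells and low in adult ones.

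The 6 genes did not all lie on the same side between the sorted fetal liver and bone marrow cells. Igf2bp2, Hmga2 and Igf2bp3 had more normalized reads in each fetal liver library than in either bone marrow library, by 2.98-fold, 2.99-fold and 2.04-fold in the authors' deposited table. Lin28b and Igf2bp1 had fewer in each fetal liver library than in either bone marrow library, with ratios of 0.446 and 0.706 in the authors' deposited table. Hmga1 overlapped between the groups. None of the 6 passed the authors' adjusted p threshold of 0.05 in the deposited table, and 0 were called higher and 0 lower, where 4.12% of all 35605 tested features were called higher and 0.129% lower. At an unadjusted p under 0.05 in that table, 2 members were higher and 0 lower, where 8.69% of features were higher and 2.4% lower. With the authors' p-values adjusted again, over the 16526 features with a mean of 10 normalized reads or more, Igf2bp2 was called higher (adjusted p of 0.0472), where 11.0% of these features were called higher and 0.502% lower. By limma on the single-library values, 2 of the 6, Igf2bp2 and Hmga2, were called higher and 0 lower, where 19.2% of 16498 features were called higher and 2.89% lower.

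In all 6 members the 3′ untranslated region holds the letters that pair with the seed of let-7. Most of these genes are known let-7 targets and were grouped as such an axis, so the matches describe the members and support nothing further. The seed is bases 2 to 8 of the mature microRNA, and 10 of 11 mature let-7 family forms in the RefSeq table for GRCm38.p6 share it. The following 3 forms are shown with the seed in capitals, so that it can be read against the sites.
let-7a: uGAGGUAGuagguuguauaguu
let-7g: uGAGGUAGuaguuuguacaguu
miR-98: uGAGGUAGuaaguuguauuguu
The seed match CTACCTC was searched on the sense strand only, in the longest 3′ untranslated region that GENCODE M21 annotates for each protein-coding gene. It was found in 1879 of 20979 genes, or 8.96%.

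Lin28b, Igf2bp1 and Hmga2 each had 4 matches, and Igf2bp2, Igf2bp3 and Hmga1 had 1 each. As many as 4 matches were present in 0.297% of 1346 genes with a 3′ untranslated region of a length like that of Lin28b (4445 bases), in 0.332% of 602 genes for Igf2bp1 (6337 bases) and in 0.124% of 2414 genes for Hmga2 (3014 bases). At least 1 match was present in 12.1% of genes of a length like that of Igf2bp2, in 13.3% for Igf2bp3 and in 8.12% for Hmga1. Each of these sets includes the member itself, so the shares with 4 matches rest on few other genes. The sites below are 22 bases each in the 3′ untranslated region, 5′ to 3′, with the seed match in capitals. They show the match nearest the stop codon of Lin28b and Hmga2, the 3 matches of Igf2bp1 that an A follows, and the single matches of the other genes. The coordinates are GRCm38, whereas the submitters' processing notes name mm9, and the deposited table gives no coordinates.
Lin28b, chr10:45381022-45381043, minus strand: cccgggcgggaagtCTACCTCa
Igf2bp1, chr11:95961778-95961799, minus strand: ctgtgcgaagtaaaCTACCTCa
Igf2bp1, chr11:95959357-95959378, minus strand: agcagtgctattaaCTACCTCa
Igf2bp1, chr11:95958763-95958784, minus strand: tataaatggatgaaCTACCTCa
Igf2bp2, chr16:22059473-22059494, minus strand: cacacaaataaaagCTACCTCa
Igf2bp3, chr6:49086787-49086808, minus strand: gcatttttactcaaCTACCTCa
Hmga1, chr17:27563278-27563299, plus strand: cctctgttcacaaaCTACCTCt
Hmga2, chr10:120364224-120364245, minus strand: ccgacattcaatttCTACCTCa
An A after the seed match, the base that the first position of let-7 faces, was present at 1 of the 4 matches in Lin28b, at 3 of 4 in Igf2bp1, at 1 of 4 in Hmga2, at the single matches of Igf2bp2 and Igf2bp3, and not in Hmga1. A match is a run of letters and does not show that let-7 acts on it in these cells.

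**Figure D1:**
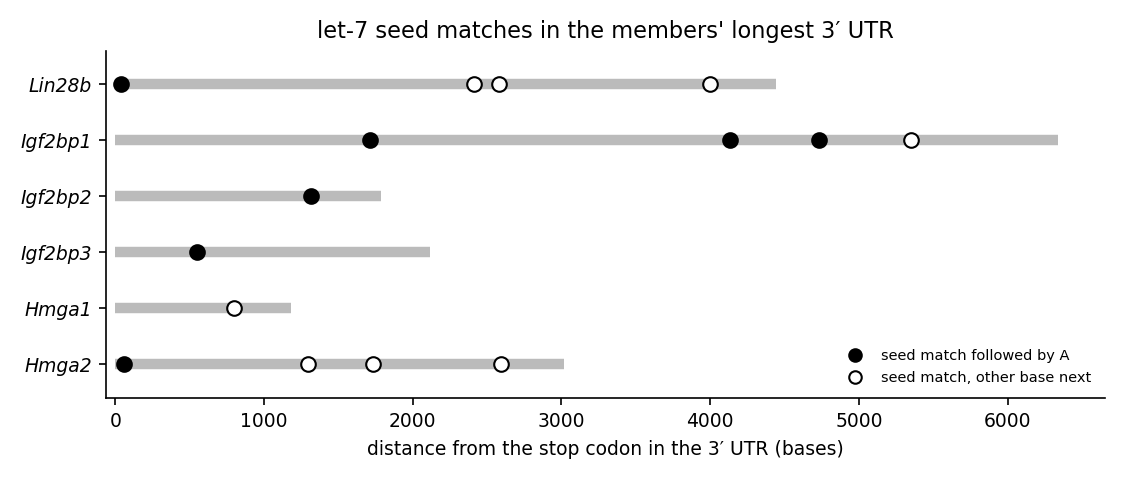
Matches to the let-7 seed along the longest annotated 3′ untranslated region of each member, with the distance from the stop codon in bases on the x axis. Filled points are matches followed by A and open points are matches followed by another base; the first match lies 36 bases after the stop codon in Lin28b and 58 bases after it in Hmga2.

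The direction of a member did not follow its number of matches. Of the 3 genes with 4 matches, Hmga2 was higher in fetal liver by limma, whereas Lin28b and Igf2bp1 were lower in ratio and passed no threshold. Across all placed protein-coding genes with a mean of at least 10 normalized reads, 3.23% of 155 genes with 2 or more matches were called higher in the authors' deposited table, 5.05% of 1108 genes with 1 match and 8.17% of 10716 genes with none. Their median log2 ratios of fetal liver over bone marrow were -0.26, -0.01 and 0.20 in the same order. The median length of the 3′ untranslated region moved with these classes, at 3610, 2294 and 1105 bases, and its part in the difference was not tested. Only placed genes enter these classes. Their placement scored each ratio against a value predicted from gene structure, transcript length included, so the ratios are not independent of length. The classes were also not matched for level. The part of placement and of level in the difference was not tested.

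Lin28b, the gene of the let-7 blocker, lies on the minus strand of chromosome 10 (chr10:45376620-45486395, GRCm38). It had a level of 18.6 (49 reads) in the deeper fetal liver library and 19.02 (16 reads) in the shallower one, against 27.0 (40 reads) in the deeper bone marrow library and 57.2 (20 reads) in the shallower one. Both fetal liver libraries lay below both bone marrow libraries, and the bone marrow libraries stood further apart than the groups' nearest libraries. The mean was 18.8 ± 0.323 in fetal liver and 42.1 ± 21.3 in bone marrow (SD, n = 2 each), and the authors' deposited table gives an adjusted p of 1. The limma log2 fold change was -1.03 ± 0.49 (SE), with a 95% interval from -2.08 to 0.02 and a limma adjusted p of 0.148. Without the shallower bone marrow library it was -0.50, and without the deeper one -1.56. In bulk libraries, a lower level can come from fewer cells of a type or from less RNA per cell, and these cannot be told apart.

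Among the RNA-binding proteins of the axis, Igf2bp1 (chr11:95957163-96005940, minus strand) was the closest between libraries of a group. It had a level of 46.2 (122 reads) in the deeper fetal liver library and 45.2 (38 reads) in the shallower one, against 60.8 (90 reads) in the deeper bone marrow library and 68.6 (24 reads) in the shallower one. The groups did not overlap, with fetal liver below, but the gap was small. Its means were 45.7 ± 0.740 in fetal liver and 64.7 ± 5.53 in bone marrow (SD, n = 2 each), and the authors' deposited table gives an adjusted p of 1. By limma the log2 fold change was -0.49 ± 0.39 (SE), with a 95% interval from -1.32 to 0.34 and an adjusted p of 0.385, which leaves room for a fold from 0.401 to 1.26.

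Igf2bp2 (chr16:22059009-22163299, minus strand), the member of the family that adult tissues are known to keep, had the highest level of the 6 in fetal liver. It had a level of 102 (268 reads) in the deeper fetal liver library and 169 (142 reads) in the shallower one, against 36.5 (54 reads) in the deeper bone marrow library and 54.3 (19 reads) in the shallower one. The lowest fetal liver library lay well above the highest bone marrow library. The mean was 135 ± 47.6 in fetal liver and 45.4 ± 12.6 in bone marrow (SD, n = 2 each), and the authors' deposited table gives an adjusted p of 0.0998. By limma its log2 fold change was 1.54 ± 0.42 (SE), a 2.90-fold difference with a 95% interval from 1.56 to 5.38 and an adjusted p of 0.0152. This call was lost without the shallower fetal liver library, where the log2 fold change was 1.17 and the limma adjusted p 0.142.

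For Igf2bp3 (chr6:49085223-49214957, minus strand), which in the mouse is known mainly from embryonic tissue, the fetal liver libraries disagreed with each other. It had a level of 39.8 (105 reads) in the deeper fetal liver library and 95.1 (80 reads) in the shallower one, against 29.1 (43 reads) in the deeper bone marrow library and 37.2 (13 reads) in the shallower one. The deeper fetal liver library stood only just above the shallower bone marrow library, and the shallower fetal liver library stood alone. The mean was 67.5 ± 39.1 in fetal liver and 33.1 ± 5.74 in bone marrow (SD, n = 2 each), and the authors' deposited table gives an adjusted p of 0.965. The limma log2 fold change was 0.89 ± 0.46 (SE), with a 95% interval from -0.09 to 1.86 and an adjusted p of 0.179. It was 0.27 without the shallower fetal liver library and 1.50 without the deeper one, where the limma adjusted p was 0.0499.

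Hmga2 (chr10:120361275-120476469, minus strand), the chromatin protein of the axis with the most let-7 matches for its length, had a level of 78.1 (206 reads) in the deeper fetal liver library and 106 (89 reads) in the shallower one, against 35.8 (53 reads) in the deeper bone marrow library and 25.7 (9 reads) in the shallower one. The groups were well apart, and here the shallower bone marrow library was the lower of its pair. Its means were 91.9 ± 19.6 in fetal liver and 30.8 ± 7.12 in bone marrow (SD, n = 2 each), and the authors' deposited table gives an adjusted p of 0.377. The limma log2 fold change was 1.55 ± 0.41 (SE), a 2.93-fold difference with a 95% interval from 1.61 to 5.33 and an adjusted p of 0.0118. Without the shallower fetal liver library the log2 fold change was 1.33 and the limma adjusted p 0.0891.

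Hmga1 (chr17:27556497-27563674, plus strand) was the member with the fewest reads. It had a level of 16.7 (44 reads) in the deeper fetal liver library and 25.0 (21 reads) in the shallower one, against 11.5 (17 reads) in the deeper bone marrow library and 17.2 (6 reads) in the shallower one. The groups overlapped, since the deeper fetal liver library lay below the shallower bone marrow library. By limma the log2 fold change was 0.51 ± 0.59 (SE), with a 95% interval from -0.74 to 1.76 and an adjusted p of 0.560, and the adjusted p in the authors' deposited table was 1. The symbol could also belong to the next feature, at a probability of 0.0284, which had 12.6 normalized reads in fetal liver and 27.4 in bone marrow and was not called either.

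**Figure D2:**
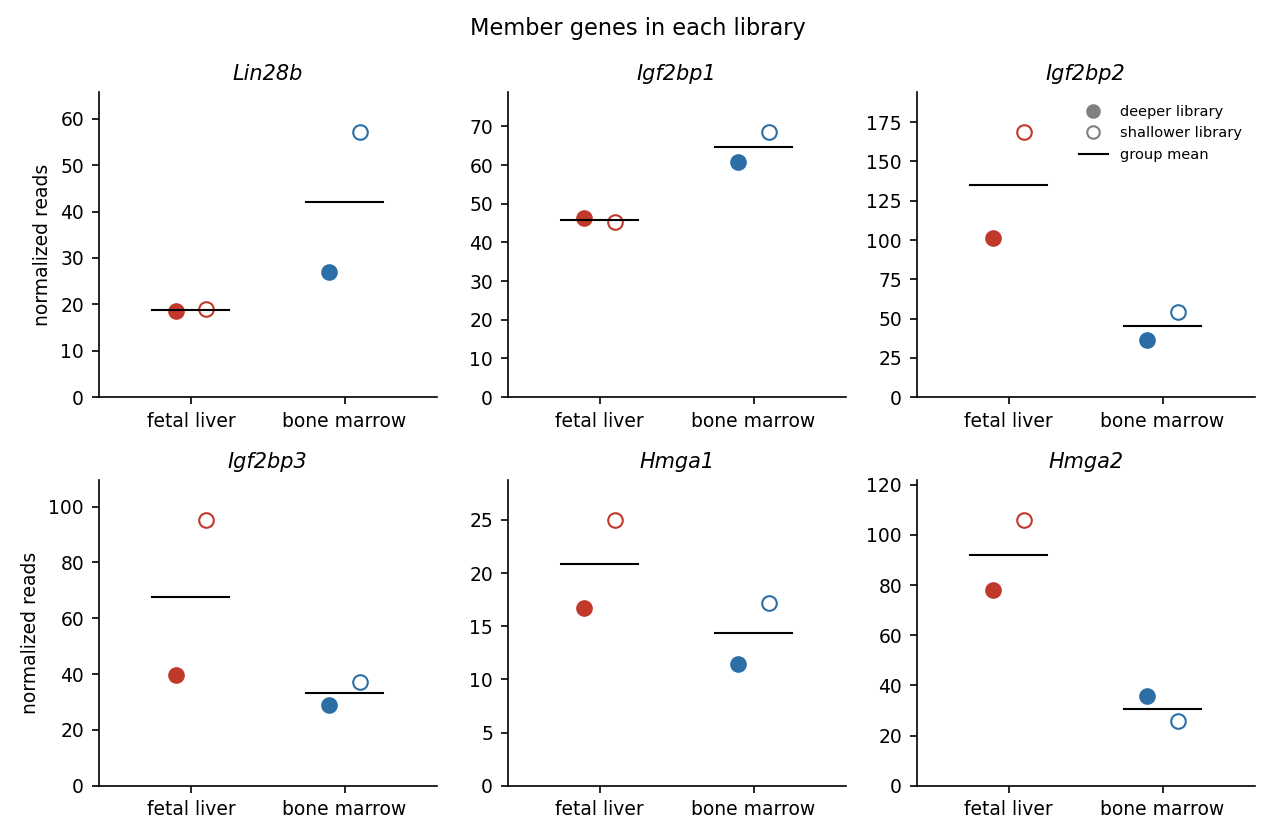
Normalized reads of each member in the fetal liver libraries (left, red) and the bone marrow libraries (right, blue), with filled points for the deeper and open points for the shallower library of a group and lines at the group means. Igf2bp2, Igf2bp3 and Hmga2 lie higher in both fetal liver libraries, Lin28b and Igf2bp1 lie lower, and Hmga1 overlaps.

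Counts of genes whose groups do not overlap are common in this comparison. Among 16498 features with a mean of at least 10 normalized reads, 37.4% had both fetal liver libraries above both bone marrow libraries, as 3 of the 6 members did, and 26.4% had both below, as 2 of the 6 did. An exact permutation test of 1 gene over 2 against 2 libraries cannot go below a two-sided p of 0.333. The median log2 ratio of the 6 members was 0.78, beside 0.11 over 16517 features of that level with reads in both groups.

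The members were also read beside features of a like level. Among 2376 features within 1.5 times the overall mean of Igf2bp2, 29.1% were called higher in the authors' deposited table and the smallest fold so called was 2.70, below the 2.98 of Igf2bp2. For Hmga2, 13.4% of 4289 such features were called higher and the smallest fold called was 2.89, against its own 2.99. Both genes thus lay above the smallest fold called at their level and were not called (adjusted p of 0.0998 and 0.377 in that table). For Igf2bp3 the corresponding values were 8.65% of 5263 features and 2.96, against its own 2.04. For Igf2bp1, 10.7% of 4832 features of its level were called higher and 0.166% lower. At the level of Lin28b, 2.83% of 6604 features were called higher and 0.242% lower, and at that of Hmga1 1% of 6183 were called higher and the smallest fold called was 5.20. The share of features of like level with a larger fold was 89.8% for Lin28b, 84.8% for Igf2bp1, 40.3% for Igf2bp2, 33.7% for Igf2bp3, 21% for Hmga1 and 24.7% for Hmga2. In the same order, the median fold of the features of like level was 1.04, 1.53, 2.45, 1.44, 0.759 and 1.66.

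**Figure D3:**
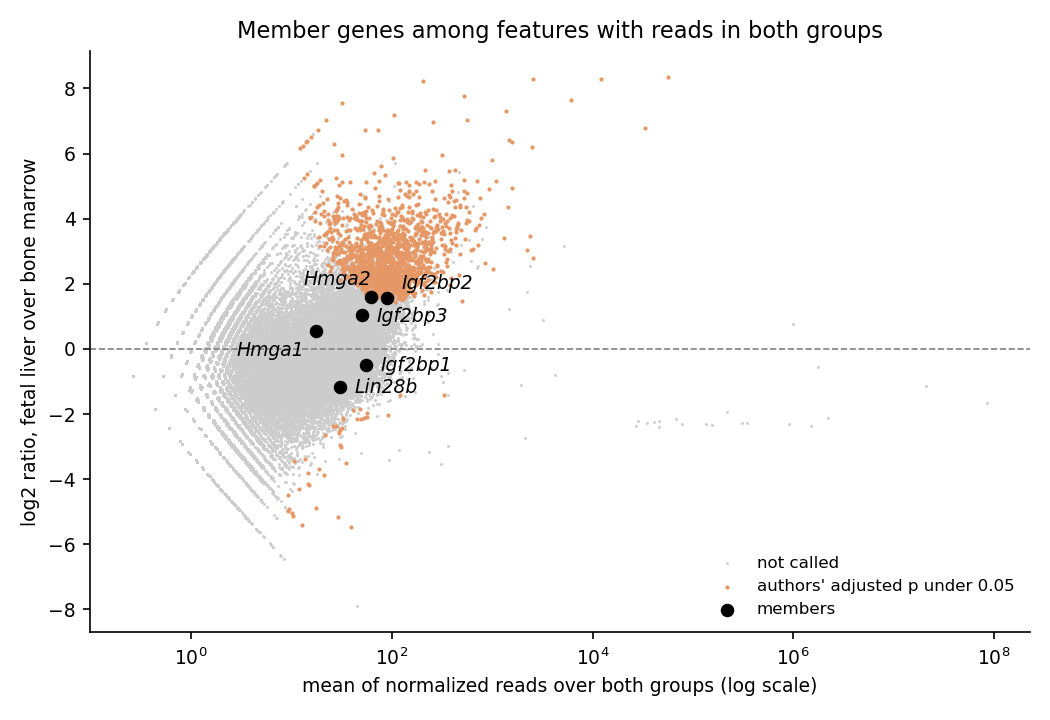
Log2 ratio of the deposited fetal liver mean over the bone marrow mean against the mean of normalized reads over both groups (log scale), for features with reads in both groups. Orange points passed the authors' adjusted p threshold of 0.05; the 6 members (black) lie outside them, with Igf2bp2 and Hmga2 at the lower edge of the called features.

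How the libraries are scaled to each other bears on every member. With the 4 libraries scaled to equal totals of recovered reads instead of the authors' size factors, a setting in which the median limma log2 fold change of all features moved by -0.68, to -0.58, Igf2bp2 and Hmga2 stayed positive at 0.83 and 0.85 but were no longer called (limma adjusted p of 0.116 and 0.114), where 11.0% of features were called higher. Under the same scaling Lin28b at -1.71 and Igf2bp1 at -1.19 were called lower (limma adjusted p of 0.0171 and 0.0312), where 17.8% of features were called lower, and Hmga1 changed sign to -0.16. These totals leave out the 23 features with means above 10000, which held 98.3% of normalized reads in fetal liver and 99.6% in bone marrow. With those features counted, equal totals moved the deposited log2 ratios the other way, up by 1.52, so that Lin28b at 0.36 and Igf2bp1 at 1.02 changed sign, Igf2bp2 and Hmga2 both stood at 3.10, Igf2bp3 at 2.55 and Hmga1 at 2.06. The move was the same for every feature, so the members kept their place among the others. Before it, the median log2 ratio over features averaging 10 normalized reads or more was 0.11. That scaling was added after seeing the data and has no test, since single-library reads were not recovered for the 23 features. Those features are not identified here. The directions of Lin28b, Igf2bp1 and Hmga1 thus depended on the scaling, whereas Igf2bp2, Igf2bp3 and Hmga2 were positive under all 3.

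**Figure D4:**
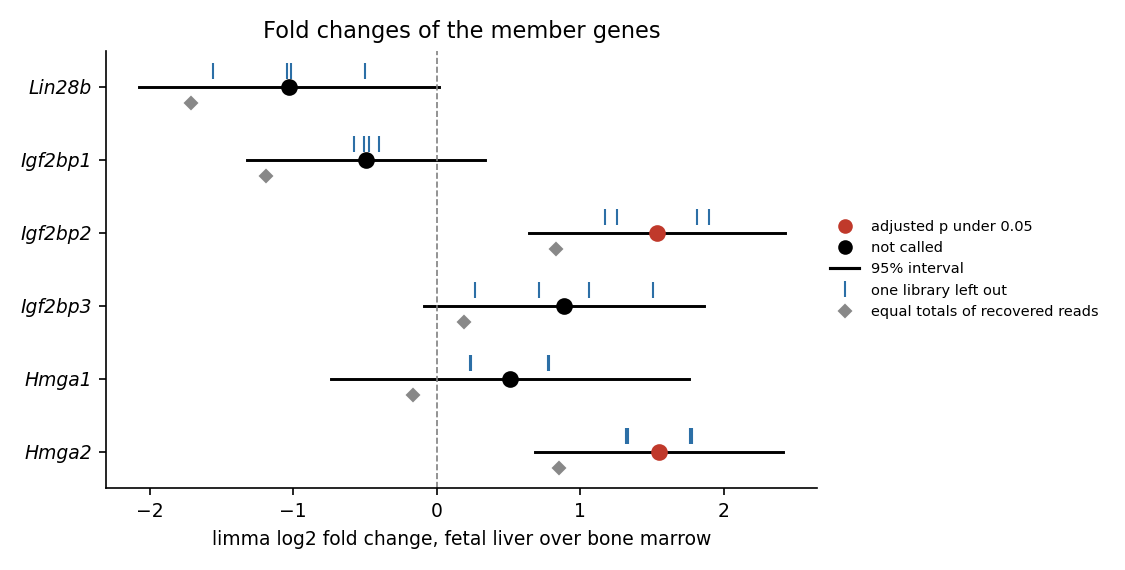
Limma log2 fold change of fetal liver over bone marrow for each member with its 95% interval; red points had an adjusted p under 0.05. Blue ticks are the same fold change with 1 library left out, and grey diamonds the fold change with all libraries scaled to equal totals of recovered reads, which shifted every member downward.

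Ratios between paralogues within a library do not depend on scaling, and they were read for the Igf2bp and the Hmga pairs. Igf2bp2 had 2.20 reads per Igf2bp1 read in the deeper fetal liver library (95% exact interval 1.77 to 2.74) and 3.74 in the shallower one (2.60 to 5.50), against 0.600 in the deeper bone marrow library (0.420 to 0.850) and 0.792 in the shallower one (0.410 to 1.51). So Igf2bp2 was the more abundant of the pair in reads in both fetal liver libraries, while the intervals of the bone marrow libraries lay below those of fetal liver. These intervals are binomial and cover counting error only, and the pairs were chosen after the values were seen, so no test is given.

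Igf2bp3 had 0.861 reads per Igf2bp1 read in the deeper (0.657 to 1.13) and 2.11 in the shallower fetal liver library (1.41 to 3.18), against 0.478 (0.324 to 0.694) in the deeper and 0.542 (0.253 to 1.11) in the shallower bone marrow library. Here the fetal liver ratios were again the higher ones, but the interval of the deeper fetal liver library overlapped those of both bone marrow libraries. For Hmga2 over Hmga1 the ratios were 4.68 (3.37 to 6.64) in the deeper and 4.24 (2.61 to 7.18) in the shallower fetal liver library, against 3.12 (1.78 to 5.74) in the deeper and 1.50 (0.477 to 5.12) in the shallower bone marrow library. All 4 of these intervals overlapped. Igf2bp3 over Igf2bp2 went the other way, with 0.392 (0.310 to 0.493) in the deeper and 0.563 (0.423 to 0.746) in the shallower fetal liver library, against 0.796 (0.521 to 1.21) in the deeper and 0.684 (0.311 to 1.46) in the shallower bone marrow library. The interval of the deeper fetal liver library lay below that of the deeper bone marrow library, and the other intervals overlapped across the groups.

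Divided by exonic length, the order of the members differed between the groups. In fetal liver, Igf2bp2 was first with 18.3 normalized reads per kb, followed by Hmga2 (13.6), Hmga1 (9.80), Igf2bp3 (8.27), Igf2bp1 (4.72) and Lin28b (2.07). As ranges over the libraries, neighbours from Igf2bp2 down to Igf2bp3 overlapped, whereas Igf2bp3, Igf2bp1 and Lin28b were each clear of the next. Within each fetal liver library, however, the order was the same. Igf2bp2, Hmga2, Hmga1 and Igf2bp3 had 13.7, 11.5, 7.85 and 4.88 per kb in the deeper library. In the shallower one they had 22.8, 15.6, 11.8 and 11.7, so that Hmga1 and Igf2bp3 nearly coincided. In bone marrow the 6 genes lay within a narrow span, from Hmga1 (6.74 normalized reads per kb) and Igf2bp1 (6.68) through Igf2bp2 (6.13), Lin28b (4.64) and Hmga2 (4.54) to Igf2bp3 (4.06). Every pair of neighbours in that order overlapped in range over the bone marrow libraries. Within them the order differed, with Igf2bp1 first in the deeper library (6.28) and Hmga1 first in the shallower one (8.07).

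The genes with the most similar profile over the 4 libraries were sought among 13435 placed genes, by the distance between log2 levels each centred on the gene's own mean. Closest to Lin28b were Gprc6a, Fam69b and Rnf6, at distances of 0.0296, 0.0779 and 0.139. Closest to Igf2bp1 were Prkcb, Slc5a11 and Sema6c (0.0395 to 0.0445). Within a distance of 0.2 lay 14 genes for Lin28b, 84 for Igf2bp1, 17 for Igf2bp2, 8 for Igf2bp3, 29 for Hmga1 and 30 for Hmga2. For Igf2bp2 they were Lyrm5, Osr1 and Tceb3 (0.0808 to 0.0959), for Igf2bp3 Irf2bpl, Cep70 and Id4 (0.0667 to 0.145), for Hmga1 Pgm1, Sap130 and Nipa1 (0.0605 to 0.112) and for Hmga2 Anln, Trim32 and Aurkb (0.0684 to 0.0871). No member was among the 3 closest genes of another. The distances rest on 4 libraries and are a description only.

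Of the enzymes and cofactors that make, tail or destroy let-7, 17 of 18 listed genes were placed, and 3 were called higher and 0 lower in the authors' deposited table, where 4.12% of all features were called higher and 0.129% lower. By limma 6 were higher and 0 lower, beside 19.2% and 2.89% of all features, but with equal totals of recovered reads limma gave 3 and 3, beside 11.0% and 17.8%. Zcchc11, which encodes TUT4, an enzyme that adds uridines to let-7 precursors, averaged 240 normalized reads in fetal liver and 58.4 in bone marrow. That was a 4.12-fold difference in the authors' deposited table, where its adjusted p was 0.00170. The helicase genes Ddx5 (9.51-fold) and Ddx17 (4.88-fold), partners of the Drosha complex that cuts the primary transcripts, also rose in that table. The related uridylase gene Zcchc6 and the gene of the decay enzyme Dis3l2 had ratios of 1.24 and 0.994 and were not called. The median log2 ratio of the list was 0.29. Lin28a could not be placed on 1 feature and is treated as not measured.

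Of 20 genes known as let-7 targets, other than the members, 18 were placed, with 2 called higher and 1 lower in the authors' deposited table (5 and 1 by limma, 2 and 2 by limma with equal totals of recovered reads). Limma took in 16 of the 18. Among all features, 4.12% were called higher and 0.129% lower in that table. By limma these shares were 19.2% and 2.89%, and 11.0% and 17.8% with equal totals of recovered reads. By limma 3 were called higher without either one of the fetal liver libraries, and 0 were called lower without the deeper bone marrow library. The cyclin genes Ccnd1 (102 normalized reads in fetal liver and 18.6 in bone marrow, 5.50-fold) and Ccnd2 (163 and 39.1, 4.17-fold) rose, and the authors' deposited table gives them adjusted p of 0.0365 and 0.0062. Nr6a1, the gene of an orphan nuclear receptor of early embryos, fell to 12.1 in fetal liver, against 52.7 in bone marrow, with an adjusted p of 0.0474 in that table. The list's median log2 ratio was 0.68, and 12 of the 20 genes held a seed match, as against 6 of 6 members.

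**Figure D5:**
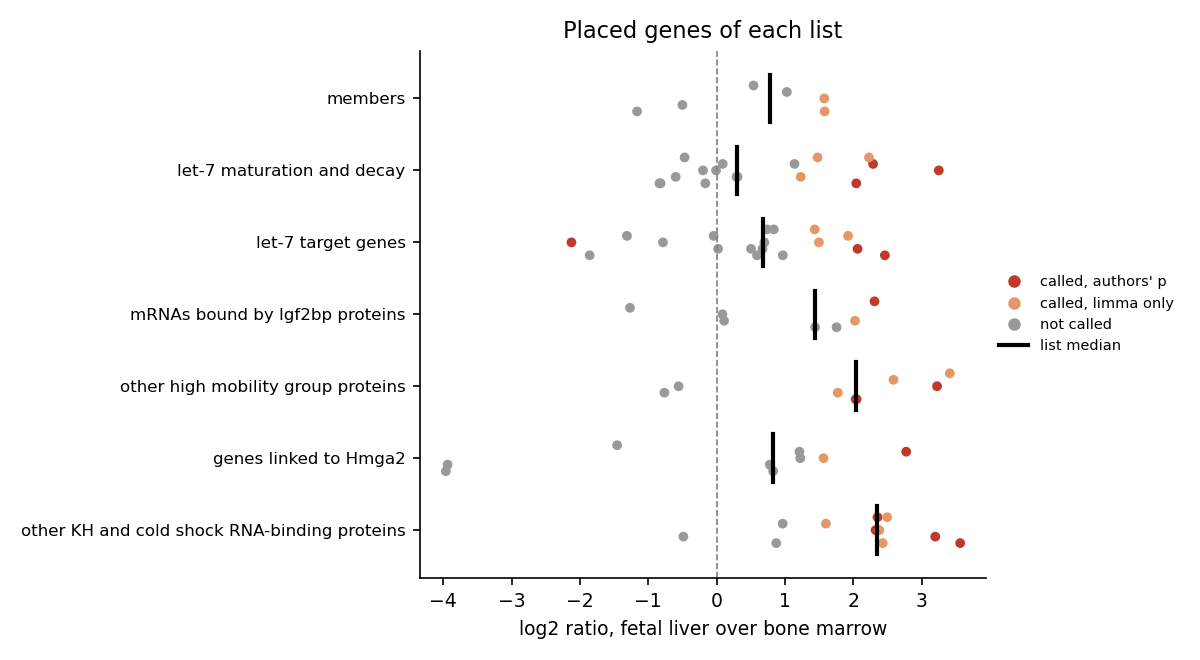
Log2 ratio of the deposited fetal liver mean over the bone marrow mean for the placed genes of each list, 1 point a gene, with the list median as a black line. Red points passed the authors' adjusted p threshold of 0.05, orange points passed limma's only; the 6 members run from -1.16 for Lin28b to 1.58 for Hmga2, with none in red.

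Among mRNAs that IGF2BP proteins are known to bind, 7 of 10 were placed, with 1 called higher and 0 lower in the authors' deposited table (2 and 0 by limma, 2 and 1 by limma with equal totals of recovered reads) and a median log2 ratio of 1.44. The shares over all features were 4.12% higher and 0.129% lower in that table. They were 19.2% and 2.89% by limma, and 11.0% and 17.8% with equal totals of recovered reads. Without either one of the fetal liver libraries limma called 1 higher, and without the shallower bone marrow library 3. Actb, the beta-actin gene whose mRNA IGF2BP1 carries to the cell edge, had a ratio of 3.37 in that table, and Ctnnb1, the beta-catenin gene, had a ratio of 4.07 and was called by limma only (adjusted p of 0.00953). The symbols of Igf2 and H19 could each belong to 2 features, all of which were called higher.

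Other high mobility group genes encode further proteins that bind and bend DNA or bind nucleosomes. With 8 of 12 placed, 3 were called higher and 0 lower in the authors' deposited table (6 and 0 by limma, 4 and 2 by limma with equal totals of recovered reads), with a median log2 ratio of 2.04. Among them were Hmgn2, a nucleosome-binding protein gene (9.34-fold), and Hmgb2, a DNA-bending protein gene (4.09-fold), both in that table. Beside this list and the next, 4.12% of all features were called higher and 0.129% lower in that table. Limma called 19.2% and 2.89% of features, and 11.0% and 17.8% with equal totals of recovered reads. Of genes linked to Hmga2, 9 of 10 were placed and 1 was called higher, the cyclin gene Ccnb2 (6.83-fold in the authors' deposited table), with 0 lower and a median log2 ratio of 0.83. Limma called 2 higher and 0 lower, 1 and 1 with equal totals of recovered reads, and 1 and 0 without the shallower fetal liver library. Ccna2, which HMGA2 is known to induce, had a ratio of 2.95 and Rb1 one of 1.77 in that table. Limma, which took in 6 of the 9 placed genes, called Ccna2 (adjusted p of 0.0168). E2f1 of the same list, named after its value was seen, went the other way with a ratio of 0.365. It was not called in that table or by limma (limma adjusted p of 0.0728).

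Cdkn2a and Cdkn2b, the cell cycle inhibitor genes that HMGA2 is known to lower in young stem cells of the mouse, are named after their values were seen. Cdkn2a had 1.52 normalized reads (4 reads) in the deeper fetal liver library and 0 in its shallower partner. In bone marrow it had 12.2 (18 reads) in the deeper library and 11.4 (4 reads) in its partner. Cdkn2b had 0 in the deeper fetal liver library and 1.19 (1 read) in the shallower one. In bone marrow it had 6.76 (10 reads) in the deeper library and 11.4 (4 reads) in the shallower one. In both genes each fetal liver library lay below each bone marrow library. Among features with a mean of at least 10 normalized reads 26.4% did so, and no such share was taken at the lower level of these genes. The adjusted p in the authors' deposited table was 0.423 for Cdkn2a and 0.430 for Cdkn2b, and their levels were under the minimum for limma. Whether HMGA2 acts on either gene in these cells was not tested.

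The KH domain of the IGF2BP proteins and the cold shock domain of LIN28B are shared with other RNA-binding proteins. Of 16 listed genes 11 were placed, with 4 called higher and 0 lower in the authors' deposited table (8 and 0 by limma, 7 and 0 by limma with equal totals of recovered reads) and a median log2 ratio of 2.35. Among those called in that table were the cold shock genes Ybx1 (11.8-fold) and Ybx3 (9.17-fold) and the KH domain gene Fmr1 (5.10-fold). The share of features called higher in that table was 4.12% over all features, 1% near the level of Hmga1 and 29.1% near that of Igf2bp2. Over all features, 0.129% were called lower there. By limma the shares were 19.2% higher and 2.89% lower, and 11.0% and 17.8% with equal totals of recovered reads. The lists were not matched for level. Whether these lists differ from the members was not tested.

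Marker lists of cell types that the sorts could hold were read beside the members, and their part in the members' levels was not tested. Of all features, 4.12% were called higher and 0.129% lower in the authors' deposited table. By limma these shares were 19.2% and 2.89%. Of 8 placed hepatoblast genes, Afp (25.8-fold) and Apoa2 (11.6-fold) were called higher in the authors' deposited table, whereas Krt8, Hnf4a, Fgb and Ahsg had ratios from 0.735 to 0.868 and were not called. The list summed to 429 and 439 normalized reads in the fetal liver libraries, of which Afp gave 260 and 285, against 126 and 65.8 in the bone marrow libraries. Of 7 placed mural genes, Pdgfrb (6.21-fold), Mcam (4.99-fold) and Tagln (44.8-fold) were called higher there, while Des (ratio 0.486) and Myh11 (ratio 1.20) were not called. The list summed to 1031 in the deeper fetal liver library and 2828 in the shallower one, of which Acta2 gave 267 and 1578 and Tagln 149 and 688, against 186 and 206 in bone marrow. Of 8 placed stromal genes, Cxcl12 (6.72-fold), Prrx1 (6.01-fold) and Cdh11 (7.07-fold) were called higher there. Lepr (ratio 0.613) and Col1a1 (ratio 0.575) went the other way and were not called. The list, led by Col1a1, summed to 2508 in the deeper and 5873 in the shallower fetal liver library. In the bone marrow libraries it summed to 1031 and 10322. The dividing cell genes Mki67 (6.73-fold), Cdk1 (7.15-fold) and Pcna (7.42-fold) were called higher there among 6 placed, and all 6 were called by limma, with sums of 999.6 and 1029 in fetal liver, against 193 and 203 in bone marrow.

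Of 11 placed myeloid genes, S100a9 (1.73 normalized reads in fetal liver and 76.3 in bone marrow) and Clec5a (0 in both fetal liver libraries, 16.8 on average in bone marrow) were called lower in that table, and the list summed to 113 and 96.3 in fetal liver, against 547 and 200.2 in bone marrow. Of 10 placed blood stem and progenitor genes, 9 erythroid genes and 9 endothelial genes, 0 were called either way there. At an unadjusted p under 0.05 the counts higher were 1, 0 and 1 and the counts lower 0, 0 and 1. Of all features, 8.69% were higher and 2.4% lower at that p. Limma gave the same counts for these 3 lists, where it called 19.2% of features higher and 2.89% lower. The erythroid genes summed to 156 and 128 normalized reads in fetal liver, against 129 and 112 in bone marrow, the progenitor genes to 263 and 340, against 243 and 223, and the endothelial genes to 383 and 298, against 364 and 277. No labelled gene of these 3 lists was at 0 in all 4 libraries. With equal totals of recovered reads, limma called 2 hepatoblast, 5 mural, 3 stromal and 3 dividing cell genes higher and 0, 1, 1 and 0 lower. Under that scaling it called 0 of the myeloid, progenitor, erythroid and endothelial genes higher, and 4, 2, 1 and 3 of them lower. Of all features, it then called 11.0% higher and 17.8% lower.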

How the data were processed

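The data are 1 deposited table of the comparison between 2 fetal liver and 2 adult bone marrow libraries, grouped by the sample titles. GSNAP, HTSeq, DESeq and the build mm9 are named, without versions, in the submitters' processing notes; the gene annotation, strand setting and filters are given in no source used here. Per the file headers, the signal columns are the authors' means of size-factor-normalized reads per group, the fold is the authors' quotient, as a ratio, of fetal liver over bone marrow, and the p-value columns come from the authors' deposited comparison. Of 37996 features, 35605 had a p-value and 2391 were at 0. A set of 23 features with means above 10000 held 98.3% of normalized reads in fetal liver and 99.6% in bone marrow; they were not used for library values.

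The 33465 symbols stand at the top of the table, closed up over 4531 features without one. They were put back with a hidden Markov model (mean of 4 runs). It uses the order of identifiers among tied p-values and a score (LightGBM 4.6.0). The score compares each feature's level and its ratio of fetal liver over bone marrow with values predicted for the gene. Predictions draw on gene structure (GENCODE M21), the place in the table and genes whose symbols begin alike. A symbol was placed at a probability of at least 0.95, which gave 20665 of 32237 symbols of tested features (64.1%). Single-library reads were recovered as the whole numbers that give the deposited group means, with 1 read worth 0.379 (deeper) and 1.19 (shallower) normalized reads in fetal liver and 0.676 and 2.86 in bone marrow. The recovered reads total 2546089 and 868148 in fetal liver and 858720 and 223361 in bone marrow.

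The main test is the authors' adjusted p under 0.05. The second is limma 3.58.1 (R 4.3.3, trended variance) fitted to log2 of normalized reads plus 1, for features averaging 10 or more, adjusted by Benjamini-Hochberg; its fold changes are differences of mean logs on that scale, where the added 1 draws low values together, and need not equal the deposited ratios. Placement and limma were tested on simulated data. Of each other list, every placed gene called either way is named, and where fewer than 3 were called the placed genes of highest mean up to 3; a few of these are not reported here. The members, lists and tests were chosen with earlier results of these data known.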

Additional observations from a re-analysis of the deposited data

How the results depend on the processing

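No paired analysis was possible because the groups share only 1 replicate number in the titles and the table's columns carry none. The count of features called higher, 1467 in the authors' deposited table, was 3175 by limma, 3398 with a pseudocount of 5, 2823 with a minimum mean of 2, 1818 with equal totals of recovered reads, and 2248 to 3415 by limma with 1 library left out; equal totals were chosen as an alternative for counts after seeing the data. Features called lower, 46 there, numbered 83 when the authors' p-values were adjusted only over features averaging 10 or more, 476 by limma, 670 with a pseudocount of 5, 381 with a minimum mean of 2, 2935 with equal totals, and 195 to 687 with 1 library left out. Of the members, 1 (Igf2bp2) was called higher under that adjustment, 2 by limma, with a pseudocount of 5 and with a minimum mean of 2, and 0 to 3 with 1 library left out; 2 were called lower with equal totals. With 1 library left out, the lone library of its group is assumed to vary like the others.

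The members' median log2 ratio, 0.78, was -0.15 with the symbols as they stand in the table and 0.24 to 1.16 with 1 library left out. With libraries scaled to equal totals of recovered reads the log2 ratio was -1.85 for Lin28b, -1.21 for Igf2bp1, 0.86 for Igf2bp2, 0.30 for Igf2bp3, -0.17 for Hmga1 and 0.85 for Hmga2, and limma gave -1.71 (now called), -1.19 (now called), 0.83 (call lost), 0.19, -0.16 (direction reversed) and 0.85 (call lost) in the same order. With groups scaled to equal totals over all features, also added after seeing the data, the ratios were 0.36, 1.02, 3.10, 2.55, 2.06 and 3.10 in that order. That scaling moved every feature by the same amount. With the symbols as they stand, Igf2bp1 had -0.64, Igf2bp3 0.34 and Hmga2 0.90. Leaving out 1 library, the ratio ranged from -1.61 to -0.52 for Lin28b, -0.59 to -0.41 for Igf2bp1, 1.16 to 1.89 for Igf2bp2, 0.27 to 1.52 for Igf2bp3, 0.22 to 0.86 for Hmga1 and 1.34 to 1.84 for Hmga2. The limma fold change ranged from -1.56 to -0.50 for Lin28b, -0.58 to -0.40 for Igf2bp1, 1.17 to 1.90 for Igf2bp2, 0.27 to 1.50 for Igf2bp3, 0.23 to 0.79 for Hmga1 and 1.32 to 1.78 for Hmga2. No member changed direction with 1 library left out. The shallower bone marrow library held 6 to 24 reads of each member, which limits the precision. The cause of these shifts was not tested.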
